A study of Mus musculus with 4 samples.

Results

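The genes described are 3 transcripts of the cytotoxic granule of T and natural killer (NK) cells, Gzma, Gzmb and Nkg7, and 3 immunoglobulin heavy chain constant genes, Ighm, Ighg1 and Ighg2b. They were taken by gene symbol from tables of mammary tumour RNA, and all 6 were found among 1142 listed genes. The tumours were those of female MMTV-PyMT mice, in which a mammary tumour virus promoter drives the polyoma virus middle T antigen, so that every sample carried this transgene. Of the 4 samples, 2 came from mice without miR-9 knockout (controls 1 and 2) and 2 from mice with it (knockouts 1 and 2). The labels name the deleted part as miR-9 exon 1 in mice obtained as heterozygotes, and a background of mixed C57BL/6, with littermates as controls. RNA was sequenced on an Illumina instrument from libraries of the TruSeq kit. The labels give no age, no zygosity for the sequenced mice, and no count of animals or tumours behind a sample, so p-values measure the spread between these samples, which may be technical.

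Cytotoxic lymphocytes kill by releasing granules that hold perforin and granzymes. Granzyme A (Gzma) and granzyme B (Gzmb) are serine proteases that act inside the target cell, and Nkg7 is a membrane protein of the granule needed for its efficient release. Antibodies are made by B cells and, in far larger amounts, by plasma cells: a heavy chain joins a variable segment to a constant region, first that of IgM (Ighm), and class switching then replaces it with that of IgG1 (Ighg1), IgG2b (Ighg2b) or another class. These transcripts in a mammary tumour sample mark immune cells, and bulk RNA does not show where in the tissue those cells lay. In bulk RNA, more cells of a type and more RNA per cell cannot be told apart.

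The sequences behind the measurements are shown first. The knockout is directed at a microRNA, whose 2 mature arms are given here from RefSeq (GRCm38.p6) with the seed, bases 2 to 8, in capitals. Each arm has the same sequence at the Mir9-1, Mir9-2 and Mir9-3 loci on chromosomes 3, 13 and 7, and the labels do not say which locus was deleted. How much mature miR-9 remained in the knockout tumours was not analysed here.
miR-9-5p: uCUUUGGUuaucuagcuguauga
miR-9-3p: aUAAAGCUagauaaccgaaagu
The perfect complement of the 5p seed (ACCAAAG) occurred once in the longest annotated 3' untranslated region of Ighm (271 bases) and once in that of Ighg1 (1304 bases). Neither complement occurred in those of Gzma, Gzmb, Nkg7 and Ighg2b (70, 584, 155 and 1352 bases), and the 3p complement (AGCTTTA) occurred in none of the 6. Among 1046 listed genes with such a region, 16.3% held the 5p complement and 12.6% the 3p complement, in regions with a median length of 1272 bases. Both matches are shown with their flanks, the match in capitals. They lie in the 3' ends of the longest annotated transcripts, which include the membrane exons, and a match is a run of letters and not a measured site.
Ighm match (chr12:113418653-113418673, minus strand): tagactgACCAAAGacttttt
Ighg1 match (chr12:113326319-113326339, minus strand): cagcagcACCAAAGacactgg

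The 3 granule genes lie on 3 chromosomes: Gzma (ENSMUSG00000023132) at chr13:113093825-113100981 on the minus strand, Gzmb (ENSMUSG00000015437) at chr14:56258838-56262260 on the minus strand, and Nkg7 (ENSMUSG00000004612) at chr7:43437073-43438249 on the plus strand (GRCm38). Because all 3 were higher in the knockouts, the 250 bases before each RefSeq start (GRCm38.p6) are printed 5′ to 3′, with motif matches in capitals. Both strands were searched for the T-box core GTGTGA, the Runx core TGTGGT, the AP-1 site TGANTCA, the CRE half-site TGACG and the TATA box TATAAN, chosen as motifs of factors known in lymphocytes or at transcription starts.
Gzma promoter (chr13:113100982-113101231, minus strand): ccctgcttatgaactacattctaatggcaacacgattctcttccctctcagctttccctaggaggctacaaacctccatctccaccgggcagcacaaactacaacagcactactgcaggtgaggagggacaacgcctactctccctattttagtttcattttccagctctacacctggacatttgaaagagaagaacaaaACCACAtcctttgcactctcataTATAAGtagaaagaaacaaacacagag
Gzmb promoter (chr14:56262335-56262584, minus strand): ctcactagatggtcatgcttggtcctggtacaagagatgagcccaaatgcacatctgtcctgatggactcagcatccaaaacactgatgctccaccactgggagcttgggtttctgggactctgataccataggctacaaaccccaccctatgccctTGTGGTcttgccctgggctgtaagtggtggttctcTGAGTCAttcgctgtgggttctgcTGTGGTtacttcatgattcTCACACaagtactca
Nkg7 promoter (chr7:43436888-43437137, plus strand): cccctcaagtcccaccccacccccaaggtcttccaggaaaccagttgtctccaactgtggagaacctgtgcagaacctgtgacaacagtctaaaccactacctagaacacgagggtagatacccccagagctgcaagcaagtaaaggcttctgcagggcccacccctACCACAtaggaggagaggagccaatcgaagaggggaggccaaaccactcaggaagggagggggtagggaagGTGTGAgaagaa
All 3 promoters held the Runx core, 2 of them the T-box core (Gzmb and Nkg7), 1 the AP-1 site (Gzmb) and 1 the TATA box (Gzma), with no match of one motif overlapping another. The CRE half-site was in none of these windows. Among 27025 promoter windows of the same length, 14.2% held the Runx core, 12.2% the T-box core, 6.87% the AP-1 site, 23.4% the TATA box and 17.9% the CRE half-site. The RefSeq start of Gzmb lies outside the deposited gene bounds, and that of Nkg7 lies inside its gene, downstream of the deposited start. These 2 windows are therefore tied to RefSeq's starts and not to the deposited ones. The end of the Nkg7 window, with its T-box match, lies inside the deposited gene, which starts at chr7:43437073.

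The 3 heavy chain genes lie in 1 cluster on the minus strand of chromosome 12, in this order along that strand: Ighm (ENSMUSG00000076617) at chr12:113418558-113422730, Ighg1 (ENSMUSG00000076614) at chr12:113325240-113330523 and Ighg2b (ENSMUSG00000076613) at chr12:113302965-113307933, with 17306 bases between the last 2. In the GENCODE M21 annotation 8 constant genes stand in this cluster. The other 5 (Ighd, Ighg3, Ighg2c, Ighe and Igha) were not among the listed genes, and their levels were not analysed here. Ighg1 and Ighg2b are related copies, so their sequences were compared to see how far reads could be split between them. Their CH1 exons were 88.3% identical, their CH2 exons 74.6%, their CH3 exons 68.9% and their first membrane exons 91.6%, and the hinge exon, which joins the antigen-binding arms to the stem, differed in length (39 and 66 bases). The hinges are shown because they set the 2 classes apart, and the longest exact run shared by the exons, 59 bases in the first membrane exon, because a read inside it fits both genes.
Ighg1 hinge (chr12:113329844-113329882, minus strand): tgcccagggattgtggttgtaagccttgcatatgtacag
Ighg2b hinge (chr12:113307261-113307326, minus strand): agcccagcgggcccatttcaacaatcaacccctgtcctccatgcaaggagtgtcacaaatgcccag
Shared run (chr12:113327476-113327534 in Ighg1, chr12:113304943-113305001 in Ighg2b): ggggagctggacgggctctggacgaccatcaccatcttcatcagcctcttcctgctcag
Of all 50-base windows of the longest transcript, 0.411% in Ighg1 and 4.33% in Ighg2b occurred in a transcript of another gene, most of the latter in Ighg2c (70 of 109). No window of Ighm, Gzma, Gzmb or Nkg7 was shared. Neither read length nor the treatment of reads that fit several genes is stated in the sources used here, so part of the Ighg2b value could belong to Ighg2c. How large a part was not tested.

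The tables give normalised read counts, that is reads per gene divided by 1 size factor per sample. Relative depth ran from 0.885 to 1.11. Every listed gene differed about 2.0-fold or more between the group means (the lowest was 1.99956-fold), so the table is a selection that the study made for difference on these same samples. By limma on log2(value + 1), 61.3% of the listed genes were called higher in the knockouts, at a Benjamini-Hochberg adjusted p under 0.05 over the 1142 genes, and 38.5% lower. The same 61.3% had both knockout values above both control values. A call for a member is therefore near what the table gives to any gene of that direction, and neither the calls nor their p-values are independent evidence. Of the marker genes fixed for the tumour epithelium, Krt5, Krt14 and Krt19 were in the table, so epithelial RNA was present. These keratins moved with genotype too, though not all in the same direction. Krt5 was 5.71-fold higher in the knockouts (limma adjusted p = 0.00169), more than 5 of the 6 members. Krt19 was 2.9-fold higher (limma adjusted p = 0.00769) and Krt14 2.38-fold lower (limma adjusted p = 0.0115). Summed, Krt5, Krt14 and Krt19 had 7729 to 9006 in the controls, against 16651 to 17747 in the knockouts. Their part in the members' result was not tested. The 7 others, such as Epcam, were not listed, which says nothing of their levels.

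All 6 genes were higher in both knockout tumours than in either control, by 3.27-fold to 6.63-fold, and all 6 were called higher (background 61.3%). Heavy chain transcripts were 4.59-fold higher in sum, at 165 and 230.5 in the controls, against 732 and 1085 in the knockouts. Granule transcripts were 3.63-fold higher in sum, at 50.1 and 71.2 against 216 and 224. The exact two-sided permutation p was 0.333 for each sum, the smallest that 2 against 2 samples allow. The median log2 change of the 6 was 1.88, against 1.23 over all listed genes and 1.70 over those that were higher, and 47.7% to 79.4% of the 700 higher genes changed less than a given member.

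**Figure D1:**
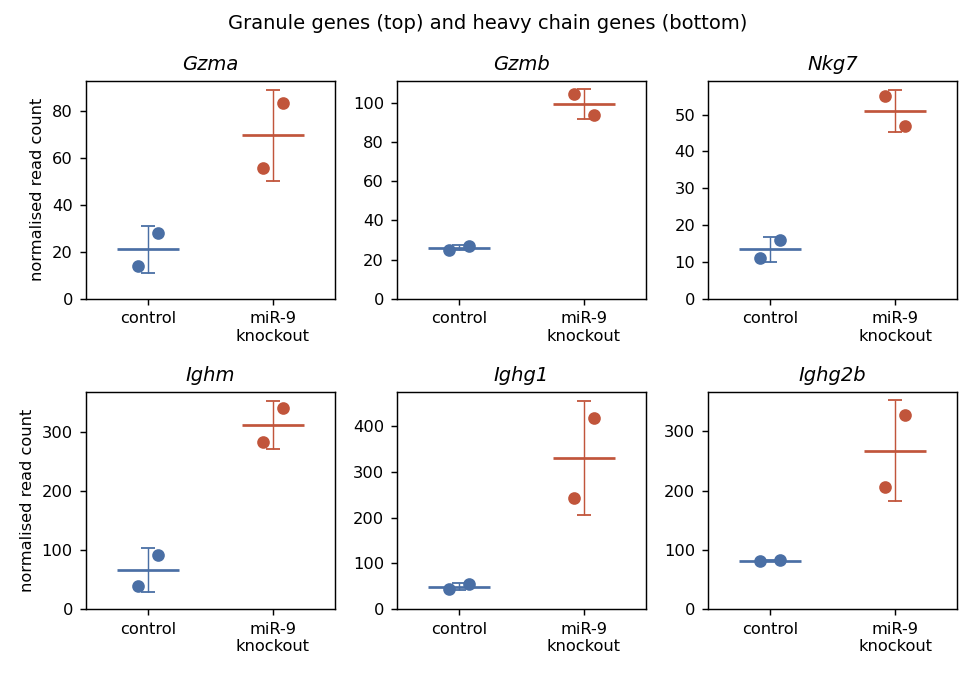
Normalised read counts of the 6 genes (vertical axes, each from 0) in the control and miR-9 knockout tumours. Points are samples, horizontal lines group means and bars SD (n = 2). In every panel both knockout points lie above both control points, and the knockout points are furthest apart for Ighg1, at 242 and 417.

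Gzmb, the granzyme that cleaves caspases in the target cell, had normalised counts of 25.1 and 27.1 in controls 1 and 2 and 105 and 94.0 in knockouts 1 and 2. The samples of a group lay close together and the groups were far apart. The mean rose 3.81-fold, from 26.1 ± 1.46 to 99.4 ± 7.68 (SD, n = 2 in each genotype here and in later means), with a log2 change of 1.89 ± 0.45 (SE) and a limma adjusted p of 0.00745. Nkg7 had 11.02 and 15.8 in the controls, against 55.1 and 47.0 in the knockouts. Its groups did not overlap either, although its control values rest on 11 and 14 reads. The mean of Nkg7 rose 3.8-fold, from 13.4 ± 3.39 to 51.0 ± 5.76 (limma adjusted p = 0.0126). Gzma, the tryptase of the granule, had 14.0 and 28.2 in the controls against 56.0 and 83.4. It was the most spread of the granule genes. In normalised counts control 2 was nearer to control 1 than to knockout 1, but on the log2 scale it was about equally far from both. Its mean rose 3.3-fold, from 21.1 ± 10.1 to 69.7 ± 19.4 (limma adjusted p = 0.0158). Without control 1 its log2 change was 1.25, against 1.73 with all samples, and its limma adjusted p was 0.0633. The other 5 members stayed called there, where 54.6% of listed genes were called higher and 32.0% lower, and all 6 without control 2, where the background was 58.2% and 35.5%.

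The proportions of the 3 granule genes varied between samples of a genotype and did not separate the genotypes. Gzmb made up 50% and 38.1% of their summed value in the controls, against 48.5% and 41.9% in the knockouts. Nkg7 made up 22% and 22.2% against 25.5% and 20.9%. Gzma made up 28.0% and 39.7% against 25.9% and 37.2%. The exact Clopper-Pearson 95% interval of the Gzma share was 16.2% to 42.5% in control 1, from 50 reads of the 3 genes, and 31.0% to 43.7% in knockout 2, from 234, so a shift of a few percent would not be detectable at this depth. Such intervals cover counting error only.  Gzma relative to Gzmb was lower in the samples numbered 1 (0.56 in control 1 and 0.534 in knockout 1) than in those numbered 2 (1.04 and 0.888).

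Ighg1, the heavy chain gene with the largest change over all samples though not without control 2 (log2 2.82, against 2.92 for Ighm), had 44.1 and 55.4 in the controls, against 242 and 417 in the knockouts. The knockouts were further apart from each other than the controls were, but the lower of them was still over the higher control. The mean of Ighg1 rose 6.63-fold, from 49.7 ± 7.96 to 330 ± 124, with a log2 change of 2.66 ± 0.42 (SE) and a limma adjusted p of 0.00251. Ighm, the first class made and the class of the B cell's own receptor, had 40.1 and 92.6 in the controls, against 283 and 340 in the knockouts. Here the controls were the spread pair, with control 2 at more than double the level of control 1. Its mean rose 4.7-fold, from 66.4 ± 37.2 to 312 ± 40.7 (limma adjusted p = 0.00468), and its log2 change ran from 1.73 without control 1 to 2.92 without control 2, against 2.33 with all samples. Ighg2b had 81.2 and 82.5 in the controls, against 207 and 328 in the knockouts. It was the most even of the 6 in the controls, and its mean rose 3.27-fold, from 81.8 ± 0.918 to 267 ± 85.5 (limma adjusted p = 0.00735). Left without either knockout sample, the limma test called 0 of the 6 genes. The background then was 1.14% of listed genes called higher.

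Within the heavy chain sum, the shares of the 2 IgG genes lay in opposite directions between the genotypes. Ighg1 made up 26.7% and 24.0% of the summed value of the 3 genes in the controls, against 33.1% and 38.4% in the knockouts, a mean of 25.3% ± 1.87 against 35.8% ± 3.78. Ighg2b made up 49.1% and 35.8% against 28.3% and 30.2%, a mean of 42.4% ± 9.41 against 29.2% ± 1.37. The groups did not overlap for either gene, and the exact two-sided permutation p was 0.333 for each, the smallest that 2 against 2 samples allow. Shares unrelated to genotype would separate with the same probability, 0.333, and those of the granule genes did not separate. The shares of the 3 genes are parts of 1 total, so a rise in 1 tends to lower the others. The 2 shifts are therefore not separate results. In reads, Ighg1 stood at 0.543 and 0.671 per read of Ighg2b in controls 1 and 2, and at 1.17 and 1.27 in knockouts 1 and 2, so Ighg2b led in the controls and Ighg1 in the knockouts. The share of Ighm did not separate the genotypes, at 24.2% and 40.2% in the controls, against 38.6% and 31.4% in the knockouts. The joint share of Ighg1 and Ighg2b was 67.8% ± 11.3 in the controls and 65.0% ± 5.15 in the knockouts (exact permutation p = 1.0). A ratio within a sample does not depend on the size factor.

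**Figure D2:**
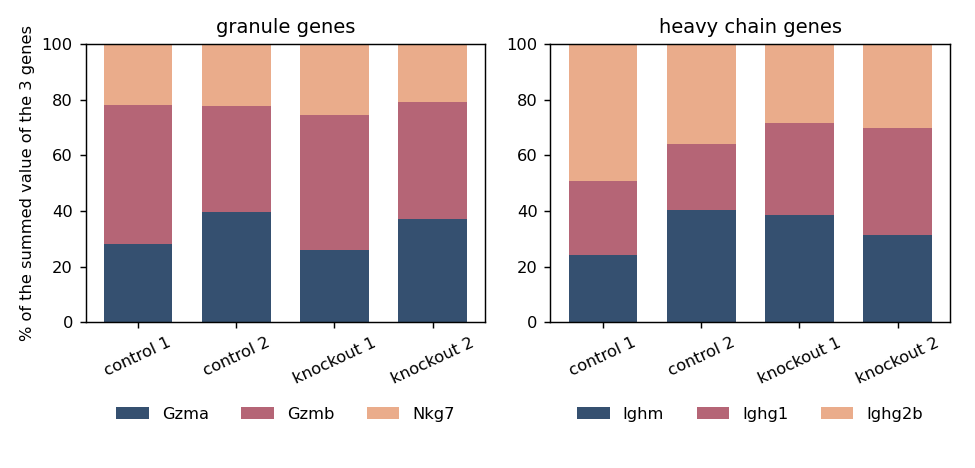
Share of each gene, in percent of the summed normalised count of the 3 granule genes (left) and the 3 heavy chain genes (right), in each of the 4 samples. On the right the Ighg1 part is larger in both knockouts (33.1% and 38.4%) than in both controls (26.7% and 24.0%) and the Ighg2b part smaller, whereas on the left the parts vary between samples of a genotype.

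Per kilobase of the deposited gene length, in normalised reads, the order of levels in the knockouts was Ighm (165 ± 21.6), Ighg1 (127 ± 47.7), Ighg2b (99.9 ± 31.9), Gzma (69.3 ± 19.2), Gzmb (69.2 ± 5.35) and Nkg7 (55.9 ± 6.30). Of these neighbours, Gzmb and Nkg7 did not overlap between samples, and each other neighbouring pair overlapped. In the controls the order was Ighm (35.2 ± 19.7), Ighg2b (30.6 ± 0.343), Gzma (21.01 ± 9.99), Ighg1 (19.2 ± 3.07), Gzmb (18.2 ± 1.01) and Nkg7 (14.7 ± 3.71). Here Ighg2b stood apart from Gzma and Gzmb from Nkg7, and the other neighbours overlapped. Ighg1 was at about the level of the granzymes in the controls and above them in both knockouts.

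Whether heavy chain and granule transcripts changed by different amounts was asked from the ratio of their sums within a sample. The ratio was 3.3 and 3.24 in the controls, against 3.39 and 4.84 in the knockouts. Both knockouts were higher, but knockout 1 by a small margin. The mean ratio was higher by 0.31 on the log2 scale (exact two-sided permutation p = 0.333, the smallest possible), and by 0.05 without knockout 2.

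A variable segment marks the B cell clones that use it. Of these segments 5 were in the table, 3 higher and 2 lower in the knockouts, all called by limma, a split near that of all listed genes (61.3% higher and 38.5% lower). Ighv9-3, a heavy chain segment (chr12:114140692-114141122), had 5.01 and 7.91 in the controls, against 37.0 and 29.7 in the knockouts, 5.17-fold higher in the mean (limma adjusted p = 0.012). Iglv2, a lambda light chain segment, had 2.0 and 2.26 against 32.5 and 20.1, 12.4-fold higher on 4 control reads (limma adjusted p = 0.00802). Both segments were higher in each knockout than in each control.

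The kappa segment Igkv1-88 had no read in either control and 18 and 11 reads in the knockouts, at least 8.38-fold higher if both controls together are set to 3 reads. In contrast, Ighv1-15 (chr12:114657353-114657786) had 57 and 11 reads in the controls, against 0 and 2 in the knockouts. That is a ratio of 38.8 in normalised reads (exact 95% counting interval 10.3 to 327), the opposite direction to the constant genes. Igkv1-133, a kappa segment, fell likewise, with 20 and 6 reads in the controls and none in the knockouts, at least 9.6-fold lower if both knockouts together are set to 3 reads. Control 1 held most reads of both segments that fell. On the log2 scale the change of Ighv1-15 was -4.03 with all samples, -2.97 without control 1, -5.09 without control 2, and -3.26 and -4.80 without knockouts 1 and 2, where it was not called. That of Igkv1-133 was -3.68, and -2.96 and -4.40 without controls 1 and 2.

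Segments of a family share sequence. Of 50-base windows, 20.9% in Ighv1-15, 23.2% in Ighv9-3, 44.3% in Igkv1-133 and 24.0% in Iglv2 also occurred in another gene, against none in Igkv1-88, so reads of the first 4 could be split with a related segment. The limma call of Ighv9-3 was lost with RLE scaling on the listed genes (log2 change 1.22, adjusted p = 0.12).

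**Figure D3:**
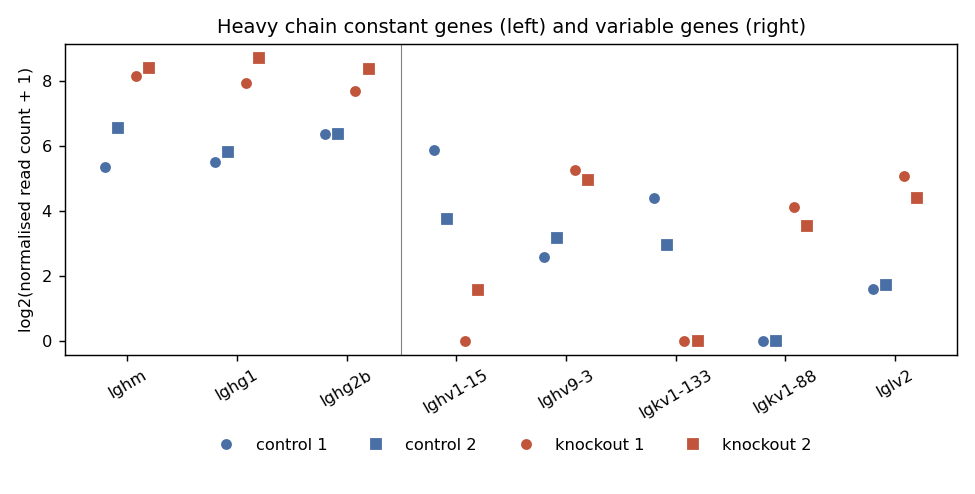
Log2(normalised read count + 1) of the 3 heavy chain constant genes (left of the line) and the 5 immunoglobulin variable genes (right), each point 1 sample, blue for control and red for knockout tumours. The constant genes are higher in both knockouts, while Ighv1-15 and Igkv1-133 are lower in both and Igkv1-88 is at 0 in both controls.

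Other genes of the killing pathway were few in the table. Of 24 genes fixed for the granule and its use, 5 were listed and 5 called higher (background 61.3%), the 3 members and 2 serine protease inhibitors. Serpinb9, which blocks granzyme B and guards cytotoxic cells and some tumour cells against it, had 321 and 348 in the controls, against 727 and 730 in the knockouts, 2.18-fold higher (limma adjusted p = 0.0107). Serpinb6b, a related inhibitor, had 71.2 and 75.7 against 203 and 200.4, 2.75-fold higher (limma adjusted p = 0.0089). Both lost the call under TMM and RLE scaling on the listed genes. Relative to Gzmb RNA, Serpinb9 RNA was lower in both knockouts: its normalised count was 12.8 and 12.8 times that of Gzmb in the controls and 6.94 and 7.77 times in the knockouts. This restates the smaller rise of Serpinb9, 2.18-fold against 3.81-fold for Gzmb. Of the 700 higher genes, 58.4% also changed less than Gzmb. The cells that made each transcript cannot be told from bulk RNA. Perforin (Prf1) and the other granzymes were not listed, and their levels were not analysed here.

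Of 24 T and NK cell genes fixed, 2 were listed, 1 called higher and 1 lower (background 61.3% and 38.5%). Il2rb, the shared receptor chain for interleukins 2 and 15, rose 3.06-fold, with 27.1 and 26.0 in controls and 76.8 and 85.3 in knockouts, at a limma adjusted p of 0.0124, a call lost under TMM (0.102) and RLE (0.369). Cd27, a co-stimulatory receptor of lymphocytes, fell 4.09-fold, with 205 and 131 in controls and 34.3 and 47.9 in knockouts, at a limma adjusted p of 0.0065, the opposite direction to the granule genes. Tox, a transcription factor of T cell development and exhaustion and the single listed gene of 8 checkpoint and regulatory T cell genes, rose 16.9-fold, with 1.00 and 3.39 in controls and 40.7 and 33.6 in knockouts, at a limma adjusted p of 0.00522. The defining T cell receptor chains and Cd3 genes were not among those listed, so the granule genes could not be set against them.

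Genes fixed for the B lineage were also few in the table. Of 13 plasma cell genes fixed, 2 were listed and both called higher (background 61.3%), and of 12 B cell genes none was listed. Pou2af1, a co-activator of immunoglobulin transcription, had 33.1 and 35.02 in the controls, against 180 and 167 in the knockouts, 5.09-fold higher (limma adjusted p = 0.00312). Derl3, which serves protein quality control in secretory cells, had 87.2 and 216 against 432 and 476, 3.0-fold higher (limma adjusted p = 0.0098), a call lost under TMM (0.0745) and RLE (0.201). Leaving out control 1 moved the log2 change of Derl3 from 1.72 to 1.07, and leaving out control 2 moved it to 2.37. Cxcl13, the chemokine that draws B cells, rose 11.6-fold, with 1.00 and 13.6 in controls and 50.6 and 118 in knockouts, at a limma adjusted p of 0.00819, with 1 read in control 1. On the log2 scale its change was 3.86 with all samples, 2.43 without control 1, 5.29 without control 2, 4.46 without knockout 1 and 3.26 without knockout 2, the last 2 not called. Cxcl12 rose 2.4-fold (limma adjusted p = 0.00928). These were the listed 2 of 19 genes fixed for lymphocyte attraction and survival. Cxcl12 was not called under TMM or RLE.

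Markers of other leukocytes were higher in the same samples. Of 13 pan-leukocyte genes 3 were listed, of 16 macrophage genes 7 and of 9 MHC class II genes 5, and all were called higher (background 61.3%). Under TMM scaling (background 24.3%) 1 macrophage gene stayed called and no gene of the other lists named here, under RLE scaling (background 15.0%) none of the 3 lists, and under RLE the changes of Ptprc, C1qa and C1qc turned below 0 (log2 -0.07, -0.04 and -0.07). The summed normalised counts ran from 652 to 970 in the controls and 1557 to 1978 in the knockouts for the pan-leukocyte genes. They ran from 9819 to 16886 against 36305 to 43528 for macrophage genes, and from 10013 to 13650 against 26454 to 30620 for MHC class II genes. The median log2 change was 1.18, 1.24 and 1.26 in these lists, against 1.88 for the 6 members and 1.23 for all listed genes. Their part in the result for the members was not tested, and the ratio to Ptprc given below is not such a test. Ido1, an interferon-induced enzyme that breaks down tryptophan and the single listed gene of 19 fixed for the interferon gamma response, had 8.02 and 12.4 in the controls, against 291 and 297 in the knockouts, 28.8-fold higher (limma adjusted p = 0.00101). Fcgr4, an Fc receptor for IgG and the single listed gene of 9 fixed for antibody transport and Fc binding, was 2.09-fold higher with a sign that turned under RLE (log2 -0.03). No MHC class I gene (10 fixed) was in the table. No neutrophil or mast cell gene of the lists (10 and 11 fixed) was in the table.

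**Figure D4:**
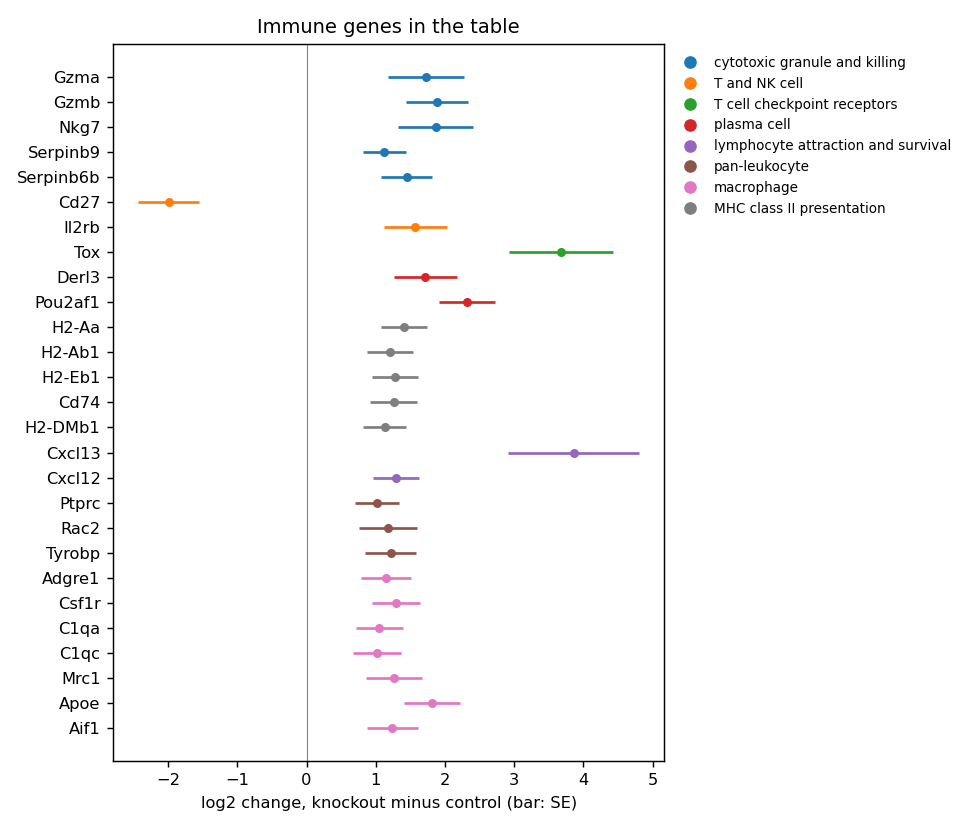
Log2 change, knockout minus control, of the immune genes in the table with its standard error from limma, coloured by gene list. The granule, plasma cell and myeloid genes lie to the right of 0, while Cd27 lies to the left at -1.99.

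Set against Ptprc, the CD45 antigen of all leukocytes, the members were higher in the knockouts. This ratio was chosen after the values were seen, and Ptprc itself had 263 and 308 in the controls, against 535 and 624 in the knockouts. That is a 2.03-fold rise, near the lowest fold in the table (1.99956), while the members rose 3.27-fold to 6.63-fold. Higher ratios were therefore largely fixed by these folds and are not separate evidence. Gzmb stood at 0.0954 and 0.0879 per Ptprc read in the controls, against 0.196 and 0.151 in the knockouts, a mean 1.89-fold higher. Ighg1 stood at 0.168 and 0.179 against 0.453 and 0.668, 3.23-fold higher, and Ighm at 0.153 and 0.300 against 0.529 and 0.545, 2.37-fold higher. The mean ratio was 1.91-fold higher for Nkg7, 1.64-fold for Gzma and 1.58-fold for Ighg2b. For all 6 both knockout ratios exceeded both control ratios. The same held for 484 listed genes (42.4%), against 700 with both knockout values above both control values. Genes lower in the knockouts could not meet it. The exact permutation p was 0.333 for each member, the smallest possible. The narrowest gap was that of Gzma, at 0.0916 in control 2 and 0.105 in knockout 1.

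The genes nearest to the members in their pattern were on none of the lists. By the Euclidean distance between centred log2(value + 1) values over the 4 samples, Gzmb was nearest to Adamts17 (0.07) and Col7a1 (0.09), Nkg7 to Rai2 (0.08) and Id3 (0.16), and Gzma to Rcn3 (0.09) and Fhit (0.10). Ighm was nearest to Sorcs1 (0.04) and Adam23 (0.06), Ighg1 to Slc35f3 (0.25) and Tmem56 (0.29), and Ighg2b to Adhfe1 (0.13) and Cav1 (0.19). Gzmb and Nkg7 were each other's nearest member (0.27), with 14 and 12 of 1032 other genes nearer, while 55 to 177 genes were nearer to each of the other 4 than any member was. With 4 samples in 2 groups, this measure mainly reflects the size of the genotype difference.

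The direction of all 6 genes held under every scaling tried, and the calls did not. On the deposited values the smallest log2 change of a member was 1.66, so the held direction was largely fixed by fold size and is not separate evidence. Size factors taken from the listed genes lowered the median change over the table, on the log2 scale, from 1.23 to 0.80 (upper quartile), 0.49 (TMM) and 0.14 (RLE), and the members moved with it. TMM and RLE assume that most genes do not differ, whereas this table holds only genes selected for difference, more of them higher. Such lowering was therefore built in, and the calls lost with it do not show which scaling is right. With these factors, in that order, the limma test called 6, 3 and 2 of the 6 higher, against a background of 45.8%, 24.3% and 15.0%. Ighg1 and Ighm were the 2 called under RLE, with log2 changes of 1.58 and 1.24, joined under TMM by Gzmb at 1.16. Counting the recovered reads, edgeR's quasi-likelihood test and DESeq2 each called all 6 higher, against backgrounds of 61.3% and 61.2%. The same 6 calls were made with a pseudocount of 0.1 (background 61.1%) or 5.

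**Figure D5:**
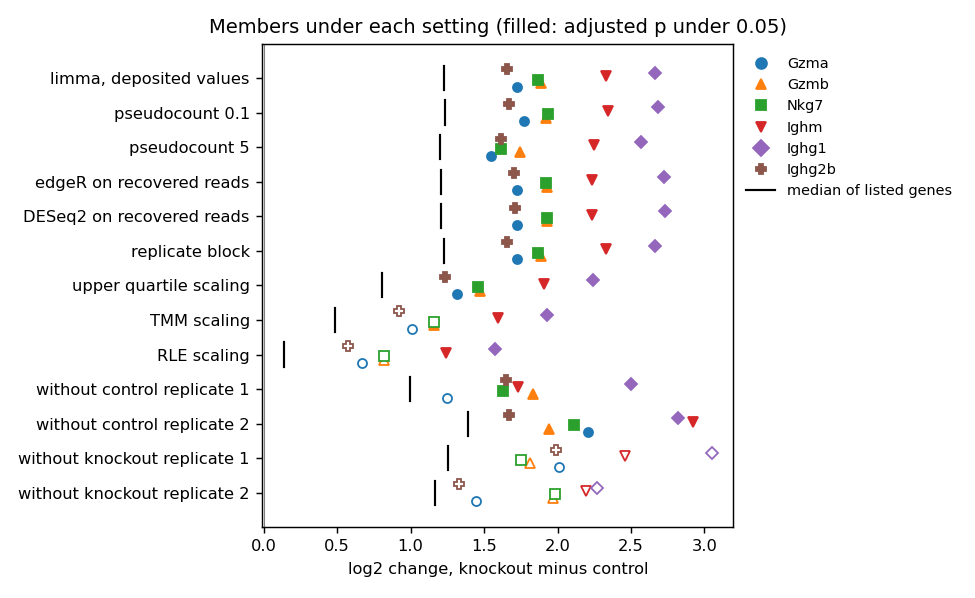
Log2 change, knockout minus control (horizontal axis), of the 6 genes under each setting (rows), filled where the adjusted p was under 0.05, with a black bar at the median of all listed genes. All symbols lie right of 0, and the open symbols are in the rows for TMM, RLE, control 1 left out and either knockout left out.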

How the data were processed

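Each of the 4 samples had 1 table of the same 1142 genes, with deposited signal values. These proved to be reads scaled by a single factor for each library: dividing by the smallest value above 0 gave whole reads for 100% of values (within 1e-06 reads). In control 1 that step, 1.00215, is so near 1 that its reads are less sure. Gene lengths and coordinates are as deposited, and all 6 members had the same bounds in GENCODE M21 (GRCm38). Bowtie 0.12.2 and the builds hg38, GRCm38 and mm10 stand in the submitters' processing notes. Counter, strand setting, annotation and list criteria are not stated there.

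The test was limma 3.58.1 (R 4.3.3), its trend option on, applied to log2(value + 1). A mean under 0.5 would have removed a gene (0 did), and p-values were Benjamini-Hochberg adjusted over the table, with a threshold of 0.05 and 2 residual degrees of freedom. It was checked on simulated counts. Alternatives were pseudocounts 0.1 and 5, other filters, TMM, RLE and upper-quartile factors, edgeR 4.0.16, DESeq2 1.42.0, a replicate block and leaving out each sample. Single values were tested by exact permutation (scipy 1.17.1). Members, gene lists, and the rule for named genes (the members, every list gene in the table, all immunoglobulin variable genes and the 2 nearest patterns per member) were chosen with earlier results of these data known. Sequences are from RefSeq (promoters, microRNAs) and GENCODE M21 (transcripts). Replicates differed by more than sampling noise (chi-square per degree of freedom 53.7 and 13.3).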

Additional observations from a re-analysis of the deposited data

How the results depend on the processing

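Pseudocounts, filters, edgeR and DESeq2 changed no call of the 6 members. Of listed genes, 700 were called higher, 278 under TMM and 171 under RLE scaling, and 13 to 665 with 1 sample left out. Called lower were 440, and 0 to 405 with 1 sample left out. Of the members, 3 were called under TMM, 2 under RLE and 0 to 6 with 1 sample left out, 5 without control 1 and 0 without either knockout. Each omission leaves the same number of samples to fit, and why leaving out a control or a knockout differed in this was not tested. Under RLE 4 named genes turned sign: Fcgr4 (-0.0261), Ptprc (-0.0735), C1qa (-0.0429) and C1qc (-0.0736). RLE assumes that most genes do not differ, which this selected table does not meet. The joint Ighg1 and Ighg2b share differed by -2.78 points, knockout minus control, with -10.8 to 5.19 when 1 sample was left out, so its direction depended on the samples kept. Taken as Ighg1 against Ighm alone it was 5.70. The replicate block gave 700 higher, 442 lower and 6 members called, with sums unchanged at 1.88 (granule) and 2.19 (heavy chain). Same-numbered samples showed a correlation of 0.04 over genes, so the number is not shown to pair them. Nkg7 and Gzma rest on 11 to 25 control reads a sample.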
